A study of Mus musculus with 18 samples.

Results

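The comparison set 2 sorted mouse populations of the erythroid lineage against each other: early progenitors of the burst-forming kind (BFU-E), taken from bone marrow at steady state, and later progenitors of the colony-forming kind (CFU-E), taken from the spleen during stress erythropoiesis. It used 6 of the 18 samples of the study, 3 RNA-seq libraries of each population, and 9568 genes were tested of the 22716 transcripts held by both RPKM tables. All mice had the B6SJL strain background. The marrow BFU-E came from steady-state marrow, were depleted of lineage-positive cells, and their columns are named for the absence of Sca1. The CFU-E came from spleens taken on day 8 after mice were lethally irradiated and given unfractionated marrow cells, and their columns are named for the absence of CD9. The labels name no antigen that separates donor cells from cells the host still had, give no age or sex, and do not say whether libraries came from separate or pooled animals. The p-values below therefore measure only the spread between these libraries, which may be technical. Tissue, irradiation with transplantation, stage and the fluorophore that detected biotinylated antibodies all changed together between the groups and cannot be told apart. The study also sequenced stress spleen BFU-E and multipotent progenitors (MPP), and profiled open chromatin by ATAC-seq in both kinds of BFU-E, also in 3 libraries each.

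Red cells arise from committed progenitors in steps. BFU-E are the earliest cells committed to the erythroid lineage; they divide slowly, depend on Kit signalling and give large colonies of many bursts. CFU-E follow: they respond to erythropoietin through its receptor, take up iron through the transferrin receptor, divide fast and begin to switch on the genes of haem, the red cell membrane and red cell metabolism under GATA1 and KLF1, before globin and the last membrane proteins accumulate. In mice that have lost their marrow, the spleen takes over much of this work. Erythroid and megakaryocytic cells share progenitors, so genes of platelets and of erythroid cells can be found together in early cells.

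The marrow libraries were less alike than the CFU-E libraries. Pearson's r of log2(RPKM + 1) across the genes tested was 0.703 to 0.796 between marrow libraries, 0.954 to 0.958 between CFU-E libraries and 0.657 to 0.799 between the groups; genes are not independent replicates, so these values are a description. The counts totalled 6758871 to 9463498 in the marrow libraries, over the genes the authors kept, and 9884686 to 12663624 in the CFU-E libraries over all genes. Marrow libraries had 5.62% (library 1), 1.61% (the unnumbered library) and 14.0% (library 3) of the tested genes at 0, against 0.376% to 0.920% in CFU-E. The other RPKM table, of 12 RNA libraries, holds a second set of marrow columns for the same 3 samples, which did not match. Its columns correlated with the first set at 0.761 to 0.858, while the spleen BFU-E columns of both tables were identical in 22716 of 22716 transcripts. In the second set the ribosomal precursor Rn45s and the RNase P RNA Rpph1 were far lower, and the median of CFU-E minus marrow over the genes tested was -0.84 on the log2 scale, against 0.15 with the first set. The first set equalled the deposited marrow counts scaled to RPKM, within the tolerance given under processing, in 8858 of 8858 genes of each library. It was used throughout. Several directions changed with the second set, so list medians and named genes are also given with it. The value of a list or a gene there stands beside that median of -0.84. The genes with the largest differences were chosen on keeping their direction there, so for these that is no independent check.

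A gene was called where limma gave an adjusted p under 0.05. Of 9568 genes, 606 (6.33%) were called, 278 (2.91%) higher and 328 (3.43%) lower in CFU-E, and 2149 had an unadjusted p under 0.05. The groups did not overlap in 1672 genes with higher CFU-E levels (17.5%) and 1306 with lower ones (13.6%). The genes that rose and those that fell differed in level. A gene near 0 in one group passed the minimum only through the other group and so had to differ. Among the 278 genes that rose, 119 were at 0 in at least 1 marrow library and 44 in all of them, and their median level was 2.87 RPKM in marrow and 21.2 RPKM in CFU-E. Among the 328 that fell, none was at 0 in any marrow library and 14 were at 0 in all CFU-E libraries, and the medians were 19.8 RPKM in marrow and 1.99 RPKM in CFU-E. With the second set of marrow columns the direction was the same for 296 of the 328 genes that fell but for 148 of the 278 that rose. The median over all genes tested was -0.84 there against 0.15 with the first set. That shift by itself favours falls over rises in keeping their sign. Leaving out a CFU-E library left 103 (library 1), 109 (library 2) or 131 (library 3) calls, 12, 14 and 21 of them rises, partly by construction, since a gene near 0 in marrow then had only 2 libraries above the minimum level and was not tested. Leaving out marrow library 1 left 385 calls and leaving out the unnumbered library gave 921.

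**Figure D1:**
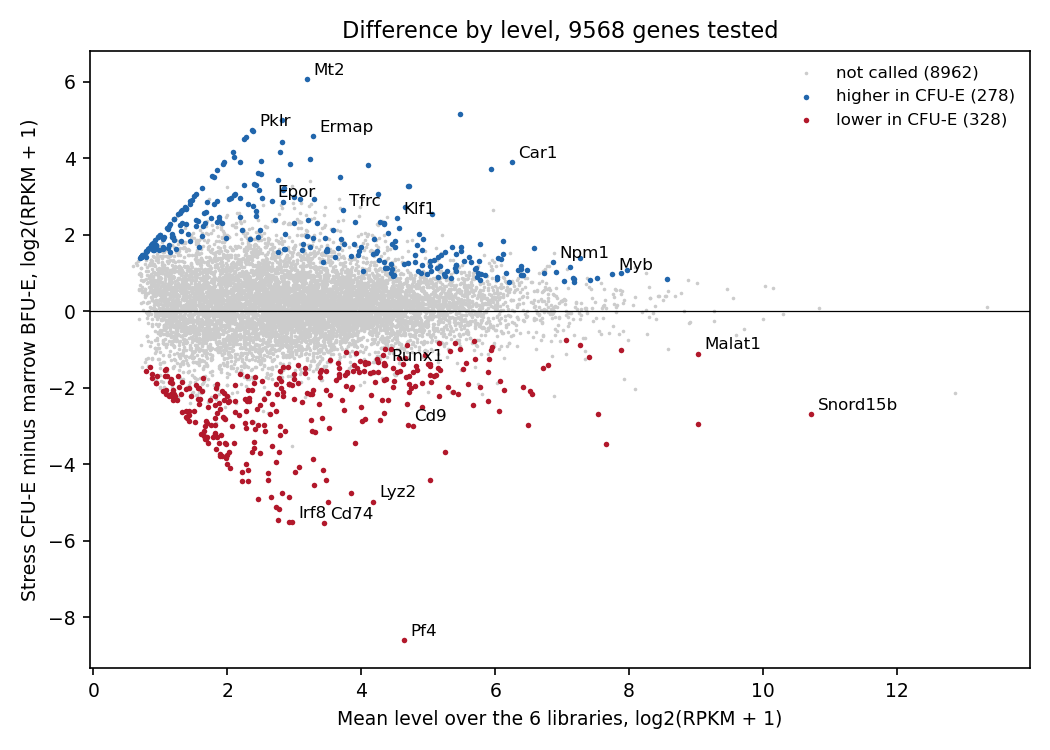
Difference between stress CFU-E and marrow BFU-E against mean level for each of the 9568 genes tested, both in log2(RPKM + 1), with the 278 genes higher in CFU-E in blue, the 328 lower ones in red and the rest in grey. The rises reach 6.08 (Mt2) and the falls -8.58 (Pf4), and the straight edges hold genes near 0 in one group.

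The list of red cell enzymes and maturation genes held the largest single rise. Of its 14 tested members 7 rose and none fell, beside 2.91% of all genes tested that rose. The median difference was 1.35 against 0.15 over all genes tested, and with the second set -0.33 against -0.84. This list and those below were chosen with earlier results of these data known, so the counts are no independent support. Mt2, a metallothionein that binds zinc and copper, was at 0.105, 0.236 and 0 RPKM in the 3 marrow libraries (library 1, unnumbered, library 3, the order used throughout) and at 75.1, 87.0 and 61.7 RPKM in CFU-E. Its groups did not come near each other, and its difference of 6.08 ± 0.30 (SE, n = 3 in each group; limma adjusted p = 0.00043) was the largest rise of all genes tested. Mt1, the neighbouring metallothionein, went from 44.3, 18.6 and 4.48 to 254, 244 and 174 RPKM. Marrow library 3 was lowest for Mt1, and the groups did not overlap (3.71, adjusted p = 0.024).

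Pklr, the pyruvate kinase of red cells and liver, was at 0.022, 0.025 and 0 RPKM in marrow and at 30.5, 28.3 and 19.8 RPKM in CFU-E (4.72 ± 0.36, adjusted p = 0.00092). Tspo2, an erythroid member of the translocator protein family, was at 0, 2.03 and 0 against 21.2, 23.8 and 18.6 RPKM (3.93, adjusted p = 0.0067), and only the unnumbered marrow library held it above 0. Carbonic anhydrase 1, Car1, which hydrates carbon dioxide, stood at 25.9, 11.3 and 22.3 against 292, 306 and 288 RPKM (3.91 ± 0.30, adjusted p = 0.00094). It was present in every marrow library, so this rise did not start from 0. With the second set the Car1 difference was 1.275. Car2, a second carbonic anhydrase, was already at 79.0 to 102 RPKM in marrow and at 190 to 228 RPKM in CFU-E (1.15, adjusted p = 0.014; -1.41 with the second set), and the biliverdin reductase Blvrb rose by 3.29 (adjusted p = 0.048), a call lost in 12 settings. The other 6 members that rose kept their direction with the second set, Mt2, Pklr, Tspo2 and Car1 by the rule that chose them. Without CFU-E library 1, 2 or 3 the list had 12 tested genes and 1, 1 and 2 rises.

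The promoters of Mt2 and Pklr are shown because they belong to the largest rises that have an entry in the RefSeq promoter table (GRCm38.p6, 250 bases before to 50 after a start). Capitals mark matches, on either strand, to AGATAA, known from sites of the factor GATA1, to CCNCNCCC, a motif of KLF factors, or to GAGGAAGT, a motif of PU.1. Mt2 lies at chr8:94172618-94173567 on the plus strand and its promoter at chr8:94172368-94172667. Pklr has 2 starts on the plus strand, at chr3:89135892-89136191 and chr3:89136373-89136672, and is known to use the upstream one in red cells and the downstream one in liver. The deposited transcript of Pklr, at chr3:89136623-89146594, begins at the downstream start.
Mt2: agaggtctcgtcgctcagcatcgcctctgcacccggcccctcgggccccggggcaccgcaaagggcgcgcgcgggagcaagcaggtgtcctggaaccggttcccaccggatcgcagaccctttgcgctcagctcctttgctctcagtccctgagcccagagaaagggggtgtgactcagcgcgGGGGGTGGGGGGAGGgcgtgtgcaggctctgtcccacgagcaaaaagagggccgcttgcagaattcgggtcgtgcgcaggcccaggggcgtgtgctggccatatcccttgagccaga
Pklr upstream: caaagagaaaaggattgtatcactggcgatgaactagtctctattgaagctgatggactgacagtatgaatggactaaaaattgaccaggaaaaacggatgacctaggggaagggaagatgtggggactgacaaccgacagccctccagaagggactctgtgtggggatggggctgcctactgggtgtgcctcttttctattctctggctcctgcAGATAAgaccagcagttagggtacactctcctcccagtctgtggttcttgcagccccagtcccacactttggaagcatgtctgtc
Pklr downstream: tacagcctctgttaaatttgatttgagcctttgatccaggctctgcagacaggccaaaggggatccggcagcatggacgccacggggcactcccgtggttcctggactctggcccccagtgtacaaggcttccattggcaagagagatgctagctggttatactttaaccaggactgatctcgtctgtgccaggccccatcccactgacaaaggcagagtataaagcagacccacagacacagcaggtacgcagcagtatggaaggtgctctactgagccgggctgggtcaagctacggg
The Mt2 promoter held 3 overlapping matches to CCNCNCCC on the opposite strand, the upstream Pklr promoter 1 match to AGATAA, and the downstream one no match to any of the 3 motifs. In the authors' merged ATAC peak lists, all 300 bases of the Mt2 promoter lay within a peak of marrow BFU-E (chr8:94172123-94173095, score 534) and within one of stress spleen BFU-E (chr8:94172007-94173209, score 1000), while neither Pklr promoter overlapped a listed peak. Mt2 was thus nearly undetected as RNA in marrow BFU-E, with a listed open region over its start. CFU-E have no peak list here.

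Other leading rises were genes of membrane and transport. Of 19 tested members of the red cell membrane and blood group list, 5 rose (26.3%, beside 2.91% of all genes tested) and none fell (median 0.78). Ermap, an erythroid membrane protein that carries the Scianna blood group, was at 1.81, 0.316 and 1.13 RPKM in marrow and at 48.1, 50.9 and 41.6 RPKM in CFU-E (4.58 ± 0.36, adjusted p = 0.0010). Ank1, the ankyrin that ties the spectrin skeleton to the membrane, was at 0.132, 0.041 and 0.020 against 16.4, 19.0 and 14.1 RPKM (4.03 ± 0.35, adjusted p = 0.0014). Add2, the adducin subunit that caps actin at spectrin junctions, was at 0, 0.080 and 0.024 against 10.9, 12.9 and 8.96 RPKM (3.51, adjusted p = 0.0023). Ank1 and Add2 were near 0 in every marrow library, and no marrow library came close to a CFU-E library in any of the 3. The other members that rose were Kel (2.94) and Rhag (2.32), which carry blood group antigens. Kel lost its call in 9 settings, among them edgeR and DESeq2 on the joined counts and each CFU-E library left out, and Rhag in 3, the second set among them (0.16, adjusted p = 0.71). Aqp1, the water channel, was at 20.9, 33.7 and 7.41 against 71.8, 77.3 and 69.6 RPKM and did not pass (adjusted p = 0.053); it was called in 5 other settings, among them DESeq2 and the fits without the unnumbered marrow library or without library 3. The anion exchanger Slc4a1 was at 0 to 0.345 RPKM in marrow and 0 to 0.234 RPKM in CFU-E, too low to be tested. Neither were globins tested: the 9 globin genes in the tables summed to 0 to 12.9 RPKM in marrow and 1.23 to 18.3 RPKM in CFU-E, and near-identical copies make their counts uncertain. With the second set of marrow columns the median of the membrane list was 0.57. Ermap, Ank1, Add2, Kel and Rhag kept their direction, Ermap and Ank1 by the rule that chose them. Without any 1 CFU-E library the list had 14 tested genes and 1 rise.

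Atp1b2, a beta subunit of the sodium and potassium pump, was at 0.610, 0.132 and 0.053 RPKM in marrow and 41.9, 44.6 and 31.4 RPKM in CFU-E (5.002 ± 0.351, adjusted p = 0.00070). Rab4a, a small GTPase of endosome recycling, was at 0.456, 1.39 and 0 against 33.8, 32.5 and 29.4 RPKM (4.44, adjusted p = 0.0017), and Slc38a5, a transporter of neutral amino acids, at 0.031, 0 and 0 against 11.8, 15.9 and 13.1 RPKM (3.84, adjusted p = 0.0017). These 3 genes were at or near 0 in the first marrow columns. With the second marrow set Rab4a (0.49, limma adjusted p = 0.27) and Slc38a5 (0.77, adjusted p = 0.16) were not called, though above the median of all genes there (-0.84). Atp1b2 kept a difference of 4.36. Myh10, a heavy chain of non-muscle myosin, was at 1.14 to 1.56 RPKM in marrow and 33.1 to 38.9 RPKM in CFU-E (3.97, adjusted p = 0.00070), and the actin-severing Scin rose by 3.84 (adjusted p = 0.015) with marrow library 1 at 4.25 RPKM and the other two at 0 and 0.550 RPKM; its call was lost in 8 settings, among them a pseudocount of 0.1, edgeR and DESeq2 on the joined counts and each CFU-E library left out. The aspartic protease cathepsin E, Ctse, was at 4.58, 2.69 and 3.57 against 64.1, 63.3 and 62.5 RPKM (3.82 ± 0.24, adjusted p = 0.00065), with little spread among the CFU-E libraries.

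**Figure D2:**
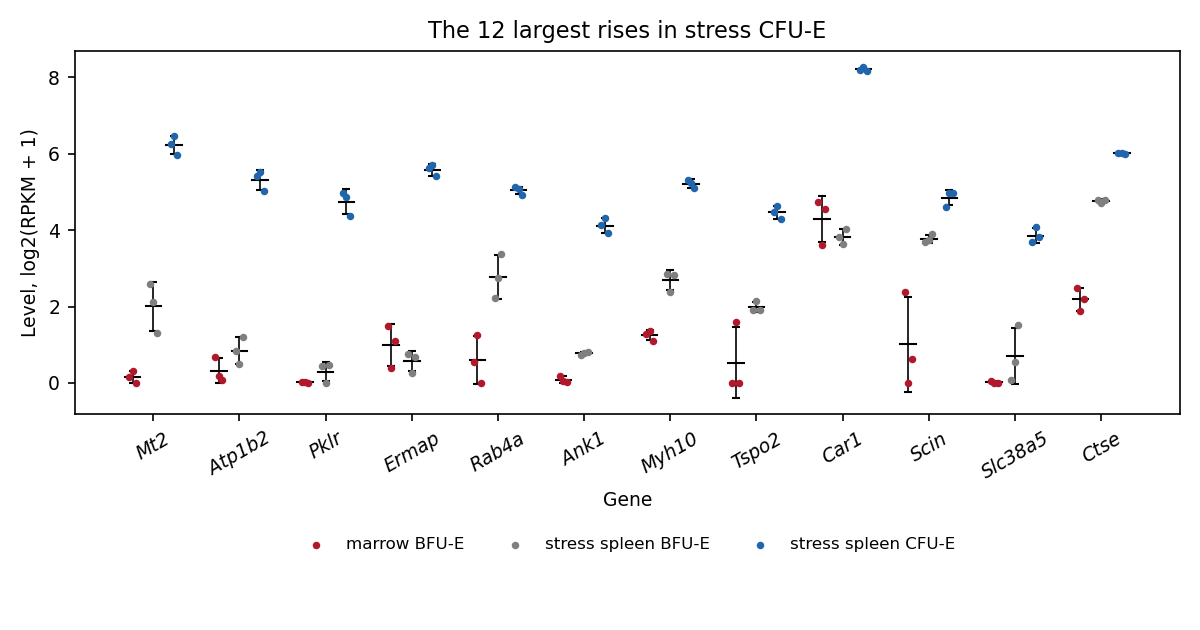
Level in log2(RPKM + 1) of the 12 named genes with the largest rises, 1 point per library for marrow BFU-E (red), stress spleen BFU-E (grey) and stress spleen CFU-E (blue), with the mean and SD of 3 libraries as bars. In each gene all CFU-E points lie above all marrow points; Scin and Tspo2 show the widest marrow spread.

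Iron uptake and haem synthesis moved in part. The transferrin receptor Tfrc, which is also the sort antigen CD71, was at 3.63, 6.29 and 3.43 RPKM in marrow and 39.6, 28.8 and 29.1 RPKM in CFU-E (2.64 ± 0.31, adjusted p = 0.0042), with no overlap. As CD71 was used in the sorts, the part of the sort in this difference was not tested, and the rise is no independent finding. Tfr2, the second transferrin receptor, was at 12.8, 18.5 and 12.3 against 31.0, 30.4 and 27.8 RPKM and only just passed (1.00, adjusted p = 0.0497; -0.47 with the second set). Of 13 tested iron genes these 2 rose (15.4%, beside 2.91% of all genes tested) and none fell (median 0.96, and -0.16 with the second set). Of 14 tested haem genes 3 rose (21.4%) and none fell (median 0.63, and -1.07 with the second set). They were coproporphyrinogen oxidase Cpox, at 6.28, 12.6 and 6.70 against 48.7, 50.4 and 34.6 RPKM (2.30, adjusted p = 0.0082), aminolaevulinate dehydratase Alad (1.69, adjusted p = 0.033; -0.85 with the second set) and ferrochelatase Fech (1.57, adjusted p = 0.028; -0.80 with the second set). The erythroid first enzyme Alas2 was below the minimum in both groups, at 0 to 2.72 RPKM in marrow and 0.113 to 1.16 RPKM in CFU-E. With the second marrow set Tfrc (1.96) and Cpox (0.45) kept their direction. Without CFU-E library 1, 2 or 3, 1 iron gene and 0, 0 and 1 haem genes rose.

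The receptor and transcription factors of the erythroid lineage gave a divided picture. Epor, the erythropoietin receptor, was at 0.767, 0.931 and 2.69 RPKM in marrow and 16.3, 18.6 and 14.0 RPKM in CFU-E (2.89 ± 0.41, adjusted p = 0.0095; -1.26 with the second set), the 1 member that passed of 10 tested in its list. Klf1, the erythroid Krüppel-like factor, was at 5.55, 6.94 and 17.8 against 64.2, 49.7 and 46.1 RPKM (2.44 ± 0.41, adjusted p = 0.017; -0.11 with the second set), with marrow library 3 highest of its group. The second set of marrow columns listed Epor at 58.0, 36.5 and 30.3 RPKM and Klf1 at 70.4, 50.5 and 51.8 RPKM, above or within the CFU-E range. The rise of these 2 genes rests on the first set, and both lost their call with each CFU-E library left out.

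Of 18 tested erythroid transcription regulators 3 rose (16.7%) and 1 fell (5.56%), beside 2.91% and 3.43% of all genes tested (median 0.24, and -0.17 with the second set). Besides Klf1, Ikzf1 (Ikaros) was at 19.6, 21.9 and 20.5 against 51.3, 52.5 and 40.9 RPKM (1.18, adjusted p = 0.017), and Myb, which keeps progenitors dividing, at 179, 143 and 139 against 300.4, 300.5 and 302.4 RPKM (0.98, adjusted p = 0.023). Runx1, a factor of stem cells and megakaryocytes, fell from 39.6, 29.6 and 29.1 to 12.7, 11.1 and 10.9 RPKM (-1.42, adjusted p = 0.015). These 3 kept their direction with the second set (2.04, 1.51 and -1.50). Each of them lost its call with each CFU-E library left out, and Myb also in limma without trend. Gata1 did not pass: it was at 41.9, 27.7 and 2.91 RPKM in marrow and 48.6, 44.7 and 43.0 RPKM in CFU-E (adjusted p = 0.34), with marrow library 3 far below the others, and it was lower in CFU-E with the second set (-1.87).

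Megakaryocyte genes fell as a group and held the largest single difference. Of 17 tested members 14 fell and none rose, with a median of -3.51, against 3.43% of all genes that fell; in 16 the groups did not overlap. Pf4, the chemokine platelet factor 4, was at 413, 563 and 500.0 RPKM in marrow and at 0.077, 0.079 and 0.779 RPKM in CFU-E (-8.58 ± 0.27, adjusted p = 3.5e-05). It was among the abundant messages of marrow BFU-E and close to 0 in CFU-E. Sdpr (cavin-2) was at 56.7, 57.3 and 77.7 against 1.74, 0.319 and 1.26 RPKM (-4.99, adjusted p = 0.00070).

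The adhesion receptors and their ligand followed. Itga2b, the alpha chain of the platelet fibrinogen receptor, was at 118, 177 and 118 RPKM in marrow and 10.6, 9.28 and 9.09 RPKM in CFU-E (-3.67, adjusted p = 0.00065). Vwf, von Willebrand factor, was at 24.8, 44.8 and 33.3 against 0.966, 0.966 and 1.21 RPKM (-4.07, adjusted p = 0.0013). Itga2b thus kept a level in CFU-E while Vwf fell to near 1 RPKM. Plek, a platelet substrate of protein kinase C, fell by 4.76 and Fli1, an ETS factor of megakaryocytes, by 3.00 on the log2 scale. Of the 3 members that did not pass, Gp9, a chain of the von Willebrand factor receptor, was at 0 in marrow library 3. Each named member kept its direction with the second marrow set, Pf4 and Sdpr by the rule that chose them. The list median was -4.77 there, and Pf4 stood at 1453 to 2681 RPKM. Without any 1 library 9 to 12 members still fell, of 11 tested without a marrow library and 17 without a CFU-E library.

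The promoters of Pf4 and Irf8 are printed as those of the leading falls with an entry in the same table, with the same marking. Pf4 lies at chr5:90772435-90773383 and its promoter at chr5:90772185-90772484, and Irf8 at chr8:120736358-120756692 with its promoter at chr8:120736108-120736407, all on the plus strand.
Pf4: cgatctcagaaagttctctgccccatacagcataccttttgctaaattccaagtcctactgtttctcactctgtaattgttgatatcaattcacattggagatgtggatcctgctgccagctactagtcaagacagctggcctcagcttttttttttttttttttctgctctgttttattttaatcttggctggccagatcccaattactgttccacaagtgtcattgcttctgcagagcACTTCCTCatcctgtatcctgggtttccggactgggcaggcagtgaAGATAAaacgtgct
Irf8: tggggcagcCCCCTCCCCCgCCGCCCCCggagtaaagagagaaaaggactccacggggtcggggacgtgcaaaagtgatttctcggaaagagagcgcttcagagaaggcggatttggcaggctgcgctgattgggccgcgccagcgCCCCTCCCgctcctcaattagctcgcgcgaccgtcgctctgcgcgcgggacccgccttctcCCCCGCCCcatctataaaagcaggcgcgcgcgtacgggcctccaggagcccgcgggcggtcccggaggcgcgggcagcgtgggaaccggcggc
The Pf4 promoter held 1 match to AGATAA and, on the opposite strand, 1 match to GAGGAAGT. The Irf8 promoter held 5 matches to CCNCNCCC, 2 of them overlapping; a second Irf8 start at chr8:120738389-120738688 held none. The whole Pf4 and the whole first Irf8 promoter lay within listed peaks of marrow BFU-E (chr5:90771643-90772853 and chr8:120735836-120736514) and of stress spleen BFU-E, each with a score of 1000.

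Myeloid genes fell next. Of 16 tested members 11 fell (68.75%, beside 3.43% of all genes tested) and none rose (median -3.10, and -5.25 with the second set). Irf8, a factor of monocytes and dendritic cells, was at 38.7, 75.2 and 46.8 RPKM in marrow and 0.126, 0.049 and 0.303 RPKM in CFU-E (-5.51 ± 0.36, adjusted p = 0.00065). Ly6c2, a monocyte surface protein, was at 40.2, 48.2 and 64.2 against 0.449, 0 and 0 RPKM (-5.49, adjusted p = 0.00065), and F13a1, the A subunit of clotting factor XIII, at 29.8, 51.4 and 54.2 against 0, 0 and 0.079 RPKM (-5.44, adjusted p = 0.00068). All marrow libraries held these genes and no CFU-E library reached 1 RPKM. Lysozyme, Lyz2, varied more, at 28.5, 212 and 167 against 3.02, 2.21 and 1.63 RPKM (-4.97 ± 0.70, adjusted p = 0.0095), and myeloperoxidase Mpo and elastase Elane fell by 4.40 and 4.53 on the log2 scale. The late granulocyte genes S100a8 and S100a9 did not pass; each was at 0 in marrow library 1 and highest among CFU-E libraries in library 1 (14.3 and 14.7 RPKM). Without any 1 library 6 to 9 members of the list fell, of 8 to 16 tested; the lowest count, 6, came without the unnumbered marrow library or library 3.

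Antigen presentation split by class. The invariant chain Cd74 was at 77.4, 68.2 and 73.0 RPKM in marrow and 1.55, 0.038 and 0.541 RPKM in CFU-E (-5.53 ± 0.37, adjusted p = 0.00068). The class II chain H2-Aa was at 43.7, 39.4 and 20.2 against 0.420, 0.131 and 0 RPKM (-4.85, adjusted p = 0.0014), H2-Ab1 fell by 2.50, and H2-Eb1, at 14.4, 18.2 and 12.9 RPKM in marrow, was listed at 0 in all CFU-E libraries (adjusted p = 0.0015). These were the 4 members that fell of 13 tested (30.8%, beside 3.43% of all genes tested), and the list median was -0.09. The class I chain H2-K1 was at 181, 277 and 221 against 278, 261 and 238 RPKM (adjusted p = 0.59) and B2m at 463, 481 and 404 against 481, 472 and 409 RPKM (adjusted p = 0.97), so their levels overlapped. With the second marrow set class I was also lower in CFU-E (H2-K1 -1.90, B2m -2.93), and the list median was -2.86. Without any 1 marrow library 2 of the 4 falls remained, of 11 tested, since a gene near 0 in CFU-E then has too few libraries above the minimum.

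The other leading falls were Cd52, Mpeg1 and Ctss; no member of the macrophage (3 tested) or lymphoid (2 tested) list was called. Cd52, a surface glycoprotein of lymphocytes and monocytes, was at 31.6, 40.6 and 41.5 against 0.089, 0.186 and 0.101 RPKM (-5.10, adjusted p = 0.00065). Mpeg1, the perforin of macrophages, was at 23.2, 38.2 and 27.3 against 0.010, 0 and 0 RPKM (-4.90, adjusted p = 0.00082). Ctss, the protease that trims the invariant chain, was at 26.2, 34.7 and 70.2 against 0.795, 0.275 and 0.225 RPKM (-4.86, adjusted p = 0.0017). No CFU-E library reached 1 RPKM in any of them. Of 8 tested genes of endosomal Toll-like receptor signalling, Tifab, which restrains a TRAF6 adaptor, fell by 4.44 (adjusted p = 0.0021) and Irf5, an interferon regulatory factor, by 3.68 (adjusted p = 0.0087), and none rose. All falls named here kept their direction with the second marrow set, Cd52, Mpeg1 and Ctss by the rule that chose them.

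Marker lists of other cells moved with these results. The 22 matched myeloid markers summed to 404 to 984 RPKM in marrow and 41.1 to 85.0 RPKM in CFU-E, with Camp and Cebpe at 0 in all marrow libraries and Cebpe and Fcgr3 in all CFU-E libraries. Megakaryocyte markers (20 matched) summed to 942 to 1215 RPKM in marrow and 33.6 to 40.1 RPKM in CFU-E, where Clec1b and Gp6 were at 0. The ranges of both lists were far apart. Macrophage markers (15) summed to 15.3 to 46.5 RPKM in marrow and 7.05 to 8.15 RPKM in CFU-E, where 10 were at 0 in every library, among them Adgre1, C1qb and Vcam1; lymphoid markers (18) to 27.4 to 74.9 and 19.5 to 24.8 RPKM, with 10 at 0 in every marrow library and 6 in every CFU-E library, Cd3e, Ms4a1 and Pax5 in both. Mast cell and basophil markers (13) summed to 2.75 to 75.7 RPKM in marrow and 18.7 to 21.0 RPKM in CFU-E, and Mcpt8 (28.5 RPKM) and Prss34 (33.8 RPKM) were high in the unnumbered marrow library alone. Of its 3 tested members Gzmb, granzyme B, rose from 0, 0.092 and 0 to 5.95, 8.26 and 4.87 RPKM (adjusted p = 0.0065) and Il1rl1, the interleukin 33 receptor, from 0.099, 1.12 and 0 to 8.74, 7.90 and 9.50 RPKM (adjusted p = 0.011). Il1rl1 lost its call in 7 settings, among them edgeR and DESeq2 on the joined counts and each CFU-E library left out, and Gzmb with the second set (1.76, adjusted p = 0.091) and in edgeR with the replicate block. Of the others, Mcpt8, Prss34, Cma1, Tpsb2 and Tpsab1 were at 0 in all CFU-E libraries. Before the sorts, cells bearing Ter-119, Gr-1, B220, CD8 or CD4 had been depleted. The part of other cell types in the falls was not tested, and in bulk RNA fewer cells of a type and less RNA per cell cannot be told apart.

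**Figure D3:**
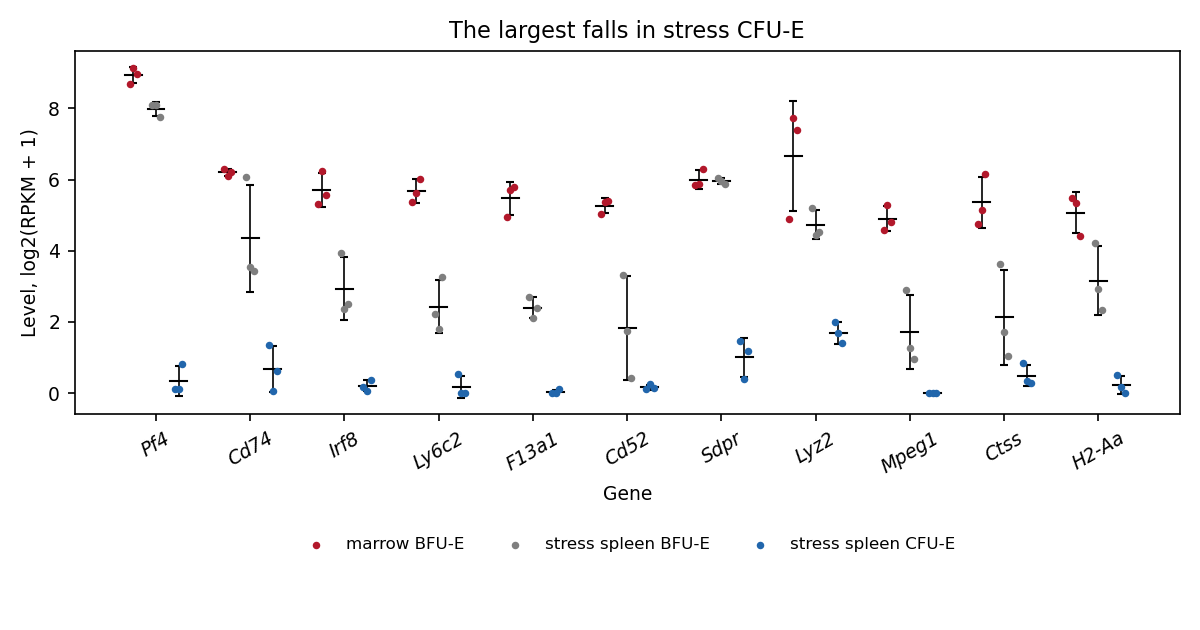
Level in log2(RPKM + 1) of the named genes with the largest falls, with points, colours and bars as in the plot of the rises (3 libraries per group, mean and SD). All CFU-E points lie below all marrow points; Sdpr and Pf4 stay high in stress spleen BFU-E, and Lyz2 has the widest marrow spread.

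Genes of stem and multipotent cells fell or did not pass. Of 14 tested members 7 fell (50%, beside 3.43% of all genes tested) and none rose (median -1.46), and all 14 differences were negative. Meis1, a homeodomain factor of stem cells, was at 50.8, 61.2 and 46.7 RPKM in marrow and 11.3, 11.7 and 14.2 RPKM in CFU-E (-2.003 ± 0.211, adjusted p = 0.0029), with no overlap. The MYC family member Mycn fell by 2.03, the vessel and stem cell adhesion protein Esam by 2.21, the growth factor Angpt1 by 1.51 and the surface protein Cd34 by 1.41 on the log2 scale. Angpt1 nevertheless stayed at 23.4 to 30.02 RPKM in CFU-E. Each of these kept its direction with the second set, where the list median was -2.54. Without any 1 CFU-E library 3 members of the list fell.

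Of the 5 tested antigens used for sorting, Cd9 fell, Tfrc, given with the iron genes, rose, and 3 did not pass. Cd9 fell from 80.3, 53.4 and 85.8 to 13.2, 7.45 and 5.51 RPKM (-2.98 ± 0.34, adjusted p = 0.0041); the CFU-E were sorted on its absence, so this checks the sort and is no finding. No other of the 12 tested tetraspanins passed (median 0.13, and -2.64 with the second set). Kit was at 28.4, 34.2 and 31.9 against 54.4, 48.2 and 51.8 RPKM; the groups did not overlap and limma did not call it (0.69, adjusted p = 0.065), but it was called in 5 other settings, by edgeR and DESeq2 on the joined counts, by edgeR on recovered reads, with the other populations in the fit and without the unnumbered marrow library. Cd24a, at 37.2, 25.4 and 15.3 against 59.8, 59.6 and 38.4 RPKM (adjusted p = 0.12), and Slamf1, which encodes CD150, at 3.30 to 4.98 against 3.08 to 7.39 RPKM (adjusted p = 0.82), did not pass either. Ly6a (Sca1) was at 0 to 0.822 RPKM in marrow and 0.266 to 2.29 RPKM in CFU-E and Prom1 (CD133) at 0 in all 6 libraries, and neither was tested. The second marrow set, also named for the absence of Sca1, held Ly6a at 6.04, 5.19 and 5.44 RPKM.

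Adhesion genes changed in both directions: of 11 tested, 1 rose (9.09%) and 4 fell (36.4%), beside 2.91% and 3.43% of all genes tested (median -0.88, and -0.96 with the second set). Itga4, the alpha 4 integrin that binds VCAM1, was at 28.9, 26.0 and 23.1 against 56.4, 55.7 and 53.2 RPKM (1.06 ± 0.18, adjusted p = 0.018). Itgb7, a beta chain that can pair with it, fell from 28.0, 30.7 and 14.3 to 7.96, 6.26 and 5.66 RPKM (-1.67, adjusted p = 0.035). The chain and its partner thus moved in opposite directions. Itgb2, the beta chain of leukocyte integrins, fell by 2.20 (adjusted p = 0.0095) and Selplg, the selectin ligand PSGL-1, by 1.70 (adjusted p = 0.034). All 4 kept their direction with the second set. Without CFU-E library 1, 2 or 3, 1, 0 and 0 of them passed.

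A minority of growth genes passed, beside 2.91% of all genes tested that rose. Of 30 tested ribosome biogenesis genes 4 rose (13.3%) and none fell (median 0.82, and -0.41 with the second set). Npm1, the nucleolar chaperone nucleophosmin, was at 61.8, 64.1 and 101 RPKM in marrow and 189, 177 and 181 RPKM in CFU-E (1.30 ± 0.22, adjusted p = 0.019), and the helicase Ddx21 at 63.5, 70.0 and 49.7 against 142, 131 and 112 RPKM (1.07, adjusted p = 0.025). Heatr1, a factor of ribosomal RNA transcription, rose by 1.52 (adjusted p = 0.013). These 3 kept their direction with the second set. Of 64 tested cytosolic ribosomal proteins 5 rose (7.81%) and none fell (median 0.56). Among them were Rps3 (1.09), Rplp0 (0.88) and Rplp2 (0.87), and ribosomal protein genes have many near-identical copies. With the second set the ribosomal protein median was 0.19. No ribosome biogenesis gene passed without any 1 CFU-E library.

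Nucleotide and one-carbon synthesis showed 5 rises (20.8%) and no fall among 24 tested genes (median 0.85, and -1.07 with the second set). Nme1, a nucleoside diphosphate kinase, was at 11.02, 24.7 and 8.66 RPKM in marrow and 61.7, 58.2 and 53.5 RPKM in CFU-E (2.03, adjusted p = 0.022; -1.69 with the second set), and Gart, an enzyme of purine synthesis, at 20.0, 33.2 and 21.7 against 83.4, 68.1 and 61.1 RPKM (1.49, adjusted p = 0.017; -0.11 with the second set). Atic of the same pathway, the folate enzyme Mthfd1 and Cad, which starts pyrimidine synthesis, were the others (1.31, 1.32 and 1.13). These 3 kept their direction with the second set. No member passed without any 1 CFU-E library.

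Mitochondrial and proteasome genes rested on the first set. Of 33 tested genes of oxidative phosphorylation 3 rose (9.09%, beside 2.91% of all genes tested) and none fell (median 0.76, and -1.53 with the second set). Atp5b, the catalytic chain of ATP synthase, was at 167, 155 and 178 against 369, 338 and 295 RPKM (1.00, adjusted p = 0.021), and Uqcrq and Cyc1 of complex III rose by 1.01 and 0.97. Of 25 tested proteasome genes, Psmb2 (2.32), Psmd12 (1.24) and Psmc2 (0.89) rose (12%) and none fell (median 0.70, and -1.43 with the second set). Cdk4, the kinase of early G1, rose from 26.0, 60.6 and 44.4 to 136, 99.4 and 95.4 RPKM (1.38, adjusted p = 0.0496). With the second set all of these but Uqcrq (0.33) were lower in CFU-E, from -1.43 (Psmc2) to -2.47 (Psmb2). Without spleen CFU-E library 1, 2 or 3, at most 1 gene of these 2 lists passed.

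No gene of DNA replication passed in the 31 tested (median 0.57, and -1.11 with the second set). The helicase subunits Mcm6, at 137, 122.7 and 174 against 181, 163 and 155 RPKM (adjusted p = 0.55), and Mcm3, at 134, 117 and 94.6 against 148, 144 and 119 RPKM (adjusted p = 0.48), overlapped between the groups. DESeq2 on the joined counts called 8 genes of this list higher, and edgeR 1. Of 19 tested mitosis genes Kif23, a kinesin of the midbody, fell from 33.7, 31.8 and 28.2 to 12.9, 11.7 and 10.6 RPKM (-1.34 ± 0.21, adjusted p = 0.014), and no other passed. Kif23 kept its direction with the second set, where the median of the mitosis list was -1.14, and lost its call with each CFU-E library left out.

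Stress and early response genes made a small set of falls. Klf4, a Krüppel-like factor of monocytes and early response, was at 16.8, 25.4 and 35.8 RPKM in marrow and 0.5, 0.549 and 1.10 RPKM in CFU-E (-3.93 ± 0.40, adjusted p = 0.0023), and the antiproliferative Btg2 fell by 2.05 (adjusted p = 0.021); no other of 18 immediate early genes passed (median -0.27, and -2.76 with the second set). In the unfolded protein response 3 of 16 fell (18.75%, beside 3.43% of all genes tested; median -0.52, and -1.06 with the second set): the factor Xbp1 by 1.48 (adjusted p = 0.046), and the endoplasmic reticulum proteins Pdia4 and Hsp90b1 by 1.02 and 1.00. Id2, an inhibitor of helix-loop-helix factors, fell by 3.45 (adjusted p = 0.0039) in the BMP list and the survival gene Bcl2 by 2.22 (adjusted p = 0.024) in its family. All of these kept their direction with the second set, where the median of all genes was -0.84. Pdia4 (-0.63) fell less than that median there, and Hsp90b1 (-0.92) lay close to it. Btg2, Xbp1, Pdia4, Hsp90b1 and Bcl2 lost their call with each CFU-E library left out, while Klf4 and Id2 kept theirs. In the lists of glycolysis (10 tested), cholesterol and fatty acid synthesis (23), interferon response (25), glucocorticoid response (6) and replication-dependent histones (55) no gene passed. The medians with the first and second set were 0.49 and -1.87 for glycolysis, -0.09 and -0.87 for cholesterol and fatty acids, 0.34 and -0.74 for interferon, and 0.27 and -0.58 for glucocorticoid.

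Small non-coding RNAs depended on the set of marrow columns. Snord15b was at 5099, 3502 and 4421 RPKM in marrow and 523, 770 and 721 RPKM in CFU-E (-2.69, adjusted p = 0.0034), and Snord15a at 2255, 1105 and 1208 against 157, 226 and 188 RPKM (-2.93, adjusted p = 0.0032). Of 71 tested small nucleolar RNAs 7 fell (9.86%) and 1, Snord19, listed at 0 in all marrow libraries, rose (1.41%). Of all genes tested, 3.43% fell and 2.91% rose. The nuclear RNAs Malat1 (-1.10, adjusted p = 0.046) and Neat1 (-1.49, adjusted p = 0.012) fell, and Rpph1, at 18244, 7572 and 27192 against 2726, 4242 and 3912 RPKM, did not pass (adjusted p = 0.079) but was called lower in 6 other settings, among them edgeR and DESeq2 on the joined counts and the fit without the unnumbered marrow library. With the second set Malat1 (0.44), Snord15a (7.56) and Snord15b (8.70) reversed, the small nucleolar RNAs had a median of 2.65, and histones, with 0.29 in the first set, one of 4.36. The second set listed Snord15a at 0 RPKM in every marrow column and Snord15b at 0, 3.08 and 0 RPKM. Histones summed to 245 to 431 RPKM in its marrow columns, against 6861 to 9849 RPKM in those of the first set. The Rpph1 difference, not called with the first set, was 10.63 with the second.

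**Figure D4:**
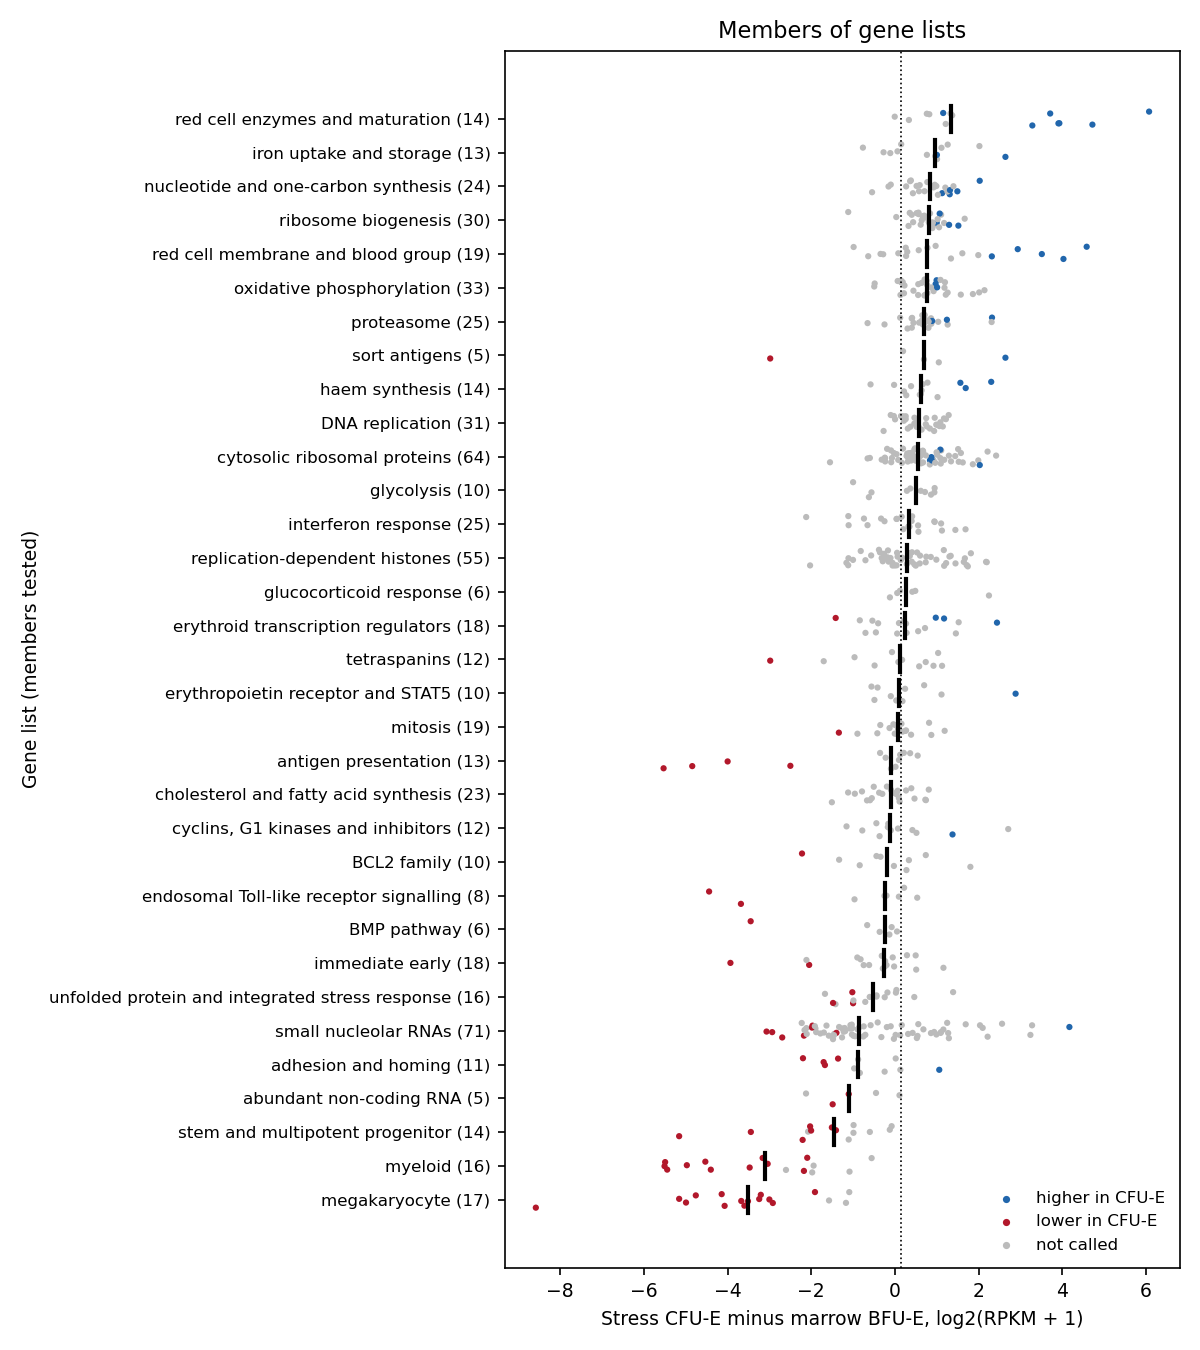
Difference between stress CFU-E and marrow BFU-E in log2(RPKM + 1) for each tested member of the lists with at least 5 tested members, with the list's median as a black bar and the median of all genes (0.15) as a dotted line. Megakaryocyte (-3.51) and myeloid (-3.10) lists lie lowest and red cell enzymes (1.35; -0.33 with the second marrow columns) highest, while most other medians lie within 1 of the dotted line.

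**Figure D5:**
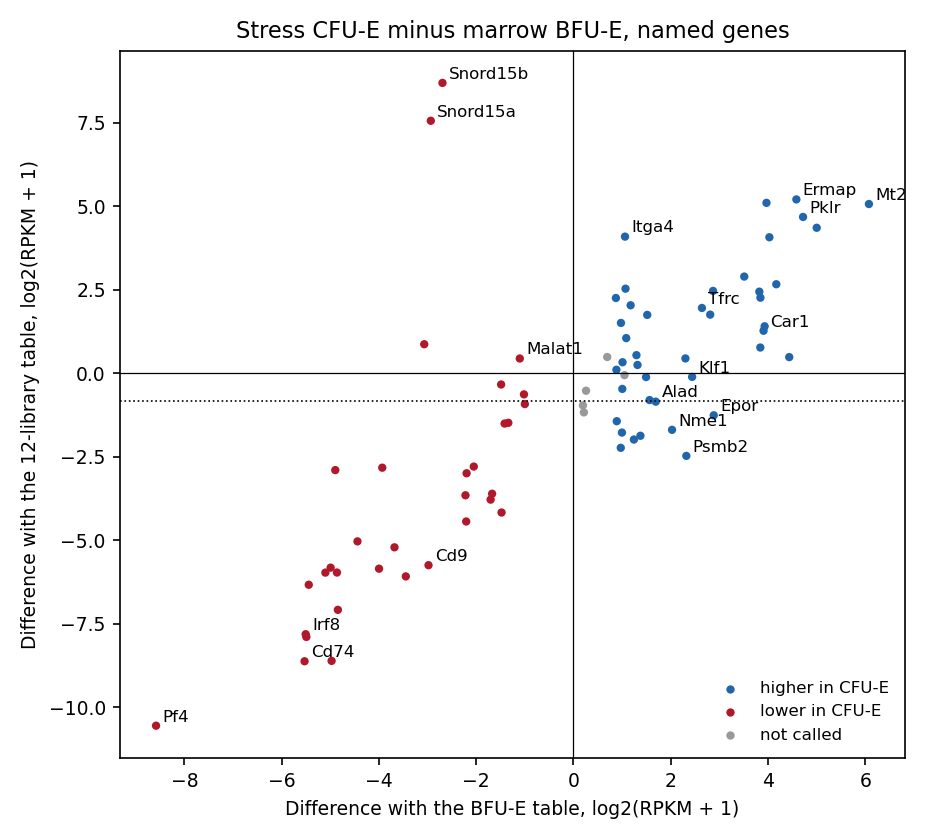
Difference between stress CFU-E and marrow BFU-E of the named genes with the marrow columns of the BFU-E table (horizontal) and of the 12-library table (vertical), both in log2(RPKM + 1), coloured by their call with the former; the dotted line is the median of all genes with the latter (-0.84). Megakaryocyte and myeloid genes lie far below 0 on both axes, while Epor, Nme1, Psmb2, Snord15a and Snord15b change side. Snord15a and Snord15b were at or near 0 in the marrow columns of the 12-library table.

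Stress spleen BFU-E libraries can be read beside both groups; they share the CFU-E and marrow libraries as comparators, so their values are given side by side only. Mt2 was at 4.997, 3.34 and 1.48 RPKM there, Pklr at 0.352, 0 and 0.373, Ermap at 0.682, 0.203 and 0.597 and Car1 at 13.1, 11.4 and 15.3. These 4 genes were thus high in CFU-E libraries and, with the first marrow set, far lower in both kinds of BFU-E. The second marrow set held Car1 at 256.2, 67.1 and 103 RPKM. With the first marrow set, Ctse (25.2 to 26.6 RPKM), Tfrc (11.7 to 15.2 RPKM) and Epor (5.24 to 8.62 RPKM) lay between the marrow and CFU-E levels, and Klf1 (8.29 to 12.0 RPKM) overlapped the marrow range. In the second marrow set Ctse (8.37 to 17.0 RPKM) was still below stress BFU-E and Tfrc (4.35 to 12.0 RPKM) overlapped it. Epor (30.3 to 58.0 RPKM) and Klf1 (50.5 to 70.4 RPKM) were above stress BFU-E there. Among the falls, Sdpr (57.7 to 65.7 RPKM) and Cd9 (62.1 to 79.1 RPKM) in stress BFU-E were at the marrow levels of the first set. The second marrow set held them higher, at 102 to 126 and 467 to 521 RPKM. Pf4 was at 214 to 275 RPKM in stress BFU-E, and Irf8 (4.13 to 14.4 RPKM) and Ly6c2 (2.50 to 8.65 RPKM) were lower than in marrow but above CFU-E. Cd74 was at 66.4 RPKM in stress BFU-E library 1 and at 10.7 and 9.78 RPKM in the others.

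Open chromatin at the start sites was described with the authors' merged peak lists, of 35142 intervals in marrow and 61661 in stress spleen BFU-E. A marrow peak within 1 kb of a start whose nearest gene it was existed for 81.1% of the protein-coding genes tested (7377 of 9098), 77.0% of those that rose (198 of 257) and 72.8% of those that fell (230 of 316). In the stress spleen list the shares were 85.0%, 84.0% and 82.9%. Genes that rose from a mean under 1 RPKM in marrow had a marrow peak in 63 of 97 cases (64.9%), beside 70.3% of all tested genes at that level (286 of 407). The 407 genes include the 97 and, being tested, passed the minimum level mostly through CFU-E, so they do not stand for weakly expressed genes at large. Genes that fell were the nearest gene of a median of 3 marrow peaks, against 1 for all tested genes and 1 for those that rose; in the stress spleen list the medians were 4, 2 and 2.

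The 3 motifs were counted in promoters of called genes, of which 191 of 278 rises and 256 of 328 falls matched the RefSeq table by symbol. AGATAA was in 24 of 239 promoters (10%) of genes that rose and 34 of 336 (10.1%) of those that fell, beside 6.36% of those of all tested genes and 11.2% of all 32851 promoters. GAGGAAGT was in 1.67% (4 of 239), 5.06% (17 of 336), 3.10% and 3.20%, and CCNCNCCC in 68.6%, 68.5%, 67.8% and 49.5% in the same order. A match is a description of letters, not of a bound site.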

How the data were processed

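RNA was profiled in 12 libraries and open chromatin in 6. The submitters' processing notes name STAR 2.6.0b-1, Bowtie2 2.3.4.2, HOMER 4.8, DESeq2 and the mm10 (GRCm38) build. The authors counted reads over the exons of 1 transcript kept per gene and deposited RPKM values and, separately, raw counts, per the file headers; the marrow counts cover only genes the authors kept on a mean count of 50. The RNA kit marks strand, but the strand used in counting is not given in the sources used here, so reads of overlapping antisense genes and of small RNAs within host genes are uncertain. The authors' merged ATAC peak lists carry a peak score, per the file headers.

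The 2 RPKM tables were joined on 22716 shared transcripts, and 1356 in which they kept different transcripts were left out. Genes with RPKM of at least 1 in 3 of the 6 libraries were tested on log2(RPKM + 1), a scale that understates the change of low genes, with limma 3.58.1 in R 4.3.3 (trend, Benjamini-Hochberg adjusted p under 0.05). On simulated data it recovered 10%, 86%, 100% and 100% of changes of 1, 2, 4 and 6 log2 units, with 1 false call in 149. The simulation changed only genes of higher level and drew independent normal noise, without zeros or library-wide effects. These rates therefore do not carry over to genes at 0 in marrow libraries. Reads recovered from RPKM and length equalled the deposited counts within tolerance in 8858 of 8858 genes of each marrow library. The tolerance was 0.5 read and widened in proportion to the count for large counts. The scale of each library was fitted on genes from the same comparison. Of the low values, 99.62% to 100% came out as whole reads within 0.1 read. Alternatives were another pseudocount, filters, scalings, the second marrow columns, each library left out, edgeR 4.0.16 and DESeq2 1.42.0 on the joined counts, and edgeR on the recovered reads, the last chosen after seeing the data.

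The members and lists were chosen with earlier results of these data known. Genes were named where they were among the 12 largest called differences per direction without overlap, with mean RPKM of at least 5 in the higher group, the same direction with the second marrow columns and no clone, predicted-gene or small-RNA name; where they were among the 3 largest called members of a list per direction, or its 2 most abundant where none was called; or where they encode sort antigens. Other genes named were chosen after their values were seen. A few genes it would name are not reported here. Samples with the same replicate number did not deviate together.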

Additional observations from a re-analysis of the deposited data

How the results depend on the processing

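The counts of calls depended on the processing. Against 606 calls (278 higher, 328 lower), the second marrow columns gave 6449 (1337 higher, 5112 lower), a fit with spleen BFU-E and MPP 1924 (1077 and 847), and DESeq2 on the joined counts 1806 (690 and 1116). The joined counts in edgeR gave 181 genes higher and 326 lower, and edgeR on recovered reads 507 in all (198 and 309). Leaving out 1 library at a time gave 103 to 921 calls, 12 to 607 higher and 91 to 314 lower. Without a CFU-E library, genes near 0 in marrow no longer reach the minimum in 3 libraries, which covers only part of the loss. Of 93 named called genes, 84 still had a value without CFU-E library 1, 2 or 3. Of these, 51, 52 and 48 lost their call. Rises were 45.9% of the calls, 20.7% with the second marrow columns, 35.7% in edgeR on the joined counts, 65.9% without the unnumbered marrow library and 11.7% without CFU-E library 1. The other settings stayed within 1.5 times. The cause was not tested.

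Of 93 named genes that were called, 32 kept their call in every setting that gave a value, and 17 reversed in at least 1, always with the second marrow columns. Calls were lost in at least 7 settings for Uqcrq, Cyc1, Cdk4, Blvrb, Tfr2, Xbp1, Pdia4, Rplp2, Psmb2, Malat1, Kel, Cd34, Rplp0, Psmc2, Scin, Hsp90b1, Il1rl1, Mthfd1, Esam and Itgb7. Calls were gained by Rpph1 (6 settings), Kit (5), Aqp1 (5), Gp9 (3), Cd24a (2) and S100a9 (2). With the second marrow columns the values were -1.26 (Epor), -0.11 (Klf1), -0.85 (Alad), -0.80 (Fech), -0.47 (Tfr2), -1.41 (Car2), -1.69 (Nme1), -0.11 (Gart), -1.87 (Cdk4), -1.77 (Atp5b), -2.23 (Cyc1), -2.47 (Psmb2), -1.98 (Psmd12), -1.43 (Psmc2), 0.44 (Malat1), 7.56 (Snord15a) and 8.70 (Snord15b). The median of all genes there was -0.84. Klf1, Tfr2, Gart, Malat1, Snord15a and Snord15b lay above it, Alad and Fech close to it, and the others below it. Snord15a and Snord15b were at or near 0 in the second marrow columns. Genes not called that reversed with these columns were Gata1 (-1.87), Cd24a (-0.0534), Slamf1 (-0.96), Mcm6 (-1.17), Mcm3 (-0.52), H2-K1 (-1.90), B2m (-2.93) and Rpph1 (10.6). Leaving out 1 library, Slamf1 ranged from -0.0421 to 0.477 and B2m from -0.0587 to 0.0881, and B2m was at -0.0202 when rescaled to protein-coding transcripts.

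Replicate numbers did not pair the samples: the deviations of same-numbered libraries correlated at -0.024, 0.0078 and -0.0089 in the 12-library table and at -0.028, -0.029 and -0.011 in the joined counts. With the replicate number as a block there were 6318 calls (1298 higher, 5020 lower) in the 12-library table, with the same reversed genes and values as the second marrow columns, and 289 (93 higher, 196 lower) in edgeR on the joined counts, a fit chosen after seeing the data.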
